A study of Macaca nemestrina with 15 samples.

Results

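The Fc receptor-like genes are a small family related to the receptors for the constant part of antibodies. Their transcripts were followed here in the blood cells of pig-tailed macaques (*Macaca nemestrina*). The members were the features of the count table whose name was *FCRL1*, *FCRL2*, *FCRL3*, *FCRL4*, *FCRL5*, *FCRLA* or *FCRLB*, which made 7 of 28865 features. The family was picked with its values at the 3 time points already known, and members that stayed low after dosing were to be set against members that came back. Its values over time are therefore given as a description. Calls from fits across all features are printed beside the share of all features called, and nothing is read from them. 5 of the 7 members passed the filter on low counts, and *FCRL4* and *FCRLB* did not.

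5 female animals received oral islatravir (ISL), a nucleoside inhibitor of HIV reverse transcriptase, at 30 mg/kg once a week for 12 weeks. By the study's methods, peripheral blood mononuclear cells (PBMCs) were taken from each animal before the first dose (pre-treatment, labelled control). They were taken again after the last of the weekly doses (week 12, labelled islatravir) and 6 weeks later, off drug (week 18, also labelled islatravir). The dates in the library names give shorter intervals, as stated below. The sampling gave 15 bulk RNA-seq libraries, with each animal as its own reference. No animals without ISL were among the samples, so the passing of time and the drug cannot be told apart.

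Fc receptor-like proteins belong to the immunoglobulin superfamily. The surface members carry extracellular immunoglobulin domains and cytoplasmic tyrosine motifs of the inhibitory (ITIM) or activating (ITAM-like) kind, through which they recruit phosphatases such as SHP-1 or kinases and tune signals from the B-cell receptor. Most of them are found on B-cells and change with B-cell maturation, while *FCRL3* is also transcribed in T-cells and NK cells, and FCRLA and FCRLB stay inside the cell.

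Between 5610597 and 10379572 reads per library fell on genes, with a median of 8871860. The week 12 and week 18 libraries of animal Z15303 were the shallowest, with 5610597 and 5886482. Levels are CPM, the reads of a gene scaled to a common library size, after TMM scaling, and changes are differences in log2 CPM within an animal. CPM was not corrected for gene length, so levels were compared within a gene only. By the dates in the library names, however, the later samples of an animal were taken 56 or 57 and 84 days after its first, which is earlier than the labelled weeks 12 and 18. The study's own figure of the design also places the last sample fewer weeks after the last dose than its methods do. The labelled names of the time points are kept, and the true intervals could not be settled from the labels. PBMCs are a mixture, and in such bulk libraries fewer B-cells and less RNA of a gene per B-cell cannot be told apart. The study itself counted CD20 cells by flow cytometry and reports fewer of them on treatment and afterwards. Those counts were not used here.

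*FCRL1*, a B-cell surface receptor with activating-type motifs, was lower than pre-treatment in 5 of 5 animals at week 12 and in 4 of 5 at week 18. In the order Z13076, Z15228, Z15303, Z15339 and Z15408, which is used throughout, it stood at 5.19, 11.6, 13.8, 22.0 and 14.3 CPM at pre-treatment. At week 12 it stood at 3.97, 6.85, 6.46, 7.40 and 6.82 CPM, and at week 18 at 5.49, 4.79, 3.55, 11.1 and 4.65 CPM. Animal Z13076 was the lowest before dosing, and its pre-treatment value alone lay within the ranges of the later time points. The mean went from 13.4 ± 6.02 (SD, n = 5) to 6.30 ± 1.34 at week 12 and 5.91 ± 2.97 at week 18. The log2 change within animals averaged −0.95 ± 0.43 at week 12 and −1.12 ± 0.75 at week 18. The wider spread at week 18 came with Z13076, which was at 105.8% of its own pre-treatment level, whereas the other 4 animals were at 25.8% to 50.5%.

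*FCRLA*, whose protein is held in the endoplasmic reticulum of B-cells and binds immunoglobulin there, stood below pre-treatment in all 5 animals, at week 12 and at week 18 alike. Its pre-treatment values were 16.5, 59.0, 31.8, 39.6 and 20.9 CPM. They were 8.55, 27.2, 21.8, 14.4 and 11.0 CPM at week 12 and 12.6, 22.0, 11.0, 24.5 and 9.41 CPM at week 18. The ranges of the time points overlapped because the animals differed 3.58-fold before dosing, but the mean drop within animals was of similar size at week 12 and week 18. It averaged −0.99 ± 0.33 at week 12 and −1.03 ± 0.48 at week 18 on the log2 scale, from a mean of 33.6 ± 16.9 CPM to 16.6 ± 7.75 and 15.9 ± 6.87 CPM (n = 5). *FCRLA* was at a median of 51.9% of its own pre-treatment level at week 12 (range 36.2–68.4%) and of 45.05% at week 18 (range 34.5–76.3%).

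*FCRL2*, an inhibitory-type receptor found mainly on memory B-cells, showed the lowest week 18 levels relative to pre-treatment among the 5 members that passed the filter. It was a low-count gene, with 11, 36, 16, 21 and 24 reads at pre-treatment. There were 2, 13, 6, 13 and 4 reads at week 12 and 3, 2, 2, 5 and 6 reads at week 18. The week 18 CPM (0.259–0.664) lay below every pre-treatment value (1.24–3.70), and the week 12 CPM (0.241–1.44) overlapped both. The mean was 2.39 ± 0.941 CPM at pre-treatment, 0.907 ± 0.551 at week 12 and 0.441 ± 0.166 at week 18 (n = 5). Within animals the log2 change averaged −1.29 ± 0.67 at week 12 and −1.91 ± 0.64 at week 18, and it was negative in 5 of 5 animals each time. Summed over the animals, 18 reads at week 18 against 108 at pre-treatment gave a ratio of 0.189 after scaling (95% interval 0.108–0.313, counting error only). From week 12 to week 18 *FCRL2* was lower in 3 animals and higher in Z13076 and Z15408, by log2 changes that rested on 2 to 13 reads per library (mean −0.62 ± 0.98). A further decline after week 12 was therefore within the spread between animals.

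*FCRL5*, a receptor for IgG that marks memory, atypical and antibody-secreting B-cells, moved differently between the later time points. At pre-treatment it stood at 3.95, 32.9, 4.99, 9.07 and 6.85 CPM. At week 12 the values were 0.964, 15.4, 1.48, 3.42 and 3.71 CPM, and at week 18 they were 3.66, 18.6, 2.84, 4.25 and 5.98 CPM. Every animal was lowest at week 12 and lay between its week 12 and pre-treatment values at week 18. The log2 change from pre-treatment averaged −1.34 ± 0.39 at week 12 and −0.58 ± 0.42 at week 18 (n = 5). From week 12 to week 18 the change averaged 0.75 ± 0.58 and ranged from 0.28 in Z15228 to 1.70 in Z13076, where it rested on 8 and 30 reads. Relative to its own pre-treatment level, *FCRL5* was at a median of 37.7% (range 24.4–54.2%) at week 12 and 56.8% (range 46.9–92.7%) at week 18. The group means, 11.5 ± 12.1, 4.99 ± 5.92 and 7.08 ± 6.57 CPM, were carried by Z15228, which had 320, 148 and 144 of the 536, 232 and 282 reads. Without that animal they were 6.22 ± 2.25, 2.39 ± 1.38 and 4.18 ± 1.33 CPM (n = 4).

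*FCRL3*, which carries both inhibitory and activating-type motifs and is also transcribed in T-cells and NK cells, had the smallest differences from pre-treatment of the 5. It stood at 25.2, 48.2, 45.6, 35.9 and 45.5 CPM at pre-treatment and at 30.4, 49.4, 26.2, 28.5 and 31.4 CPM at week 12. At week 18 the values were 21.5, 37.7, 25.4, 21.4 and 36.6 CPM. At week 12 it was lower in 3 animals and higher in Z13076 and Z15228, and at week 18 it was lower in 5 of 5. The mean log2 change was −0.27 ± 0.43 at week 12, smaller than its spread, and −0.49 ± 0.28 at week 18 (n = 5). The 3 animals sampled on shared dates (Z15303, Z15339 and Z15408) averaged −0.55 at week 12, and the other 2, each with dates of its own, averaged 0.15. Without Z15303, whose week 12 library was the shallowest, the mean at week 12 was −0.14.

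**Figure D1:**
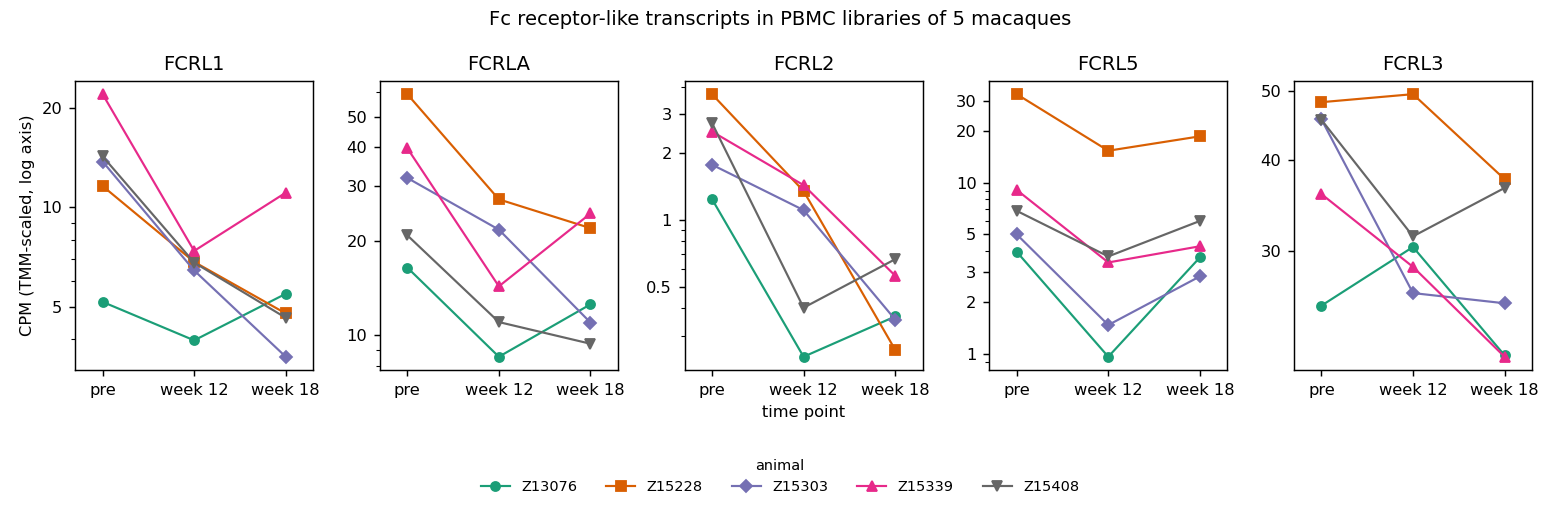
TMM-scaled CPM (log axis, a separate scale for each gene) of the 5 Fc receptor-like members that passed the filter, at pre-treatment, week 12 and week 18, with each line joining the 3 libraries of an animal. *FCRL5* was lowest at week 12 in every animal (0.964–15.4 CPM), *FCRL2* at week 18 (0.259–0.664 CPM) lay below all of its pre-treatment values, and Z15228 stood apart from the other animals for *FCRL5* at every time point.

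*FCRL4*, an IgA receptor of tissue memory B-cells, and *FCRLB*, an intracellular relative, were near the limit of detection. *FCRL4* had 4, 3 and 2 reads over the 5 libraries of pre-treatment, week 12 and week 18, and 3, 2 and 4 of those libraries had none. *FCRLB* had 6, 10 and 5 reads, with 2, 1 and 2 libraries at 0. Neither gene reached more than 5 reads in a library. The 95% Poisson intervals of the summed *FCRL4* reads, 1.09–10.2, 0.619–8.77 and 0.242–7.22, overlapped, as did those of *FCRLB*, 2.20–13.1, 4.80–18.4 and 1.62–11.7. A difference between time points was not detectable for either gene at this depth. Intervals of this kind cover counting error only.

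**Figure D2:**
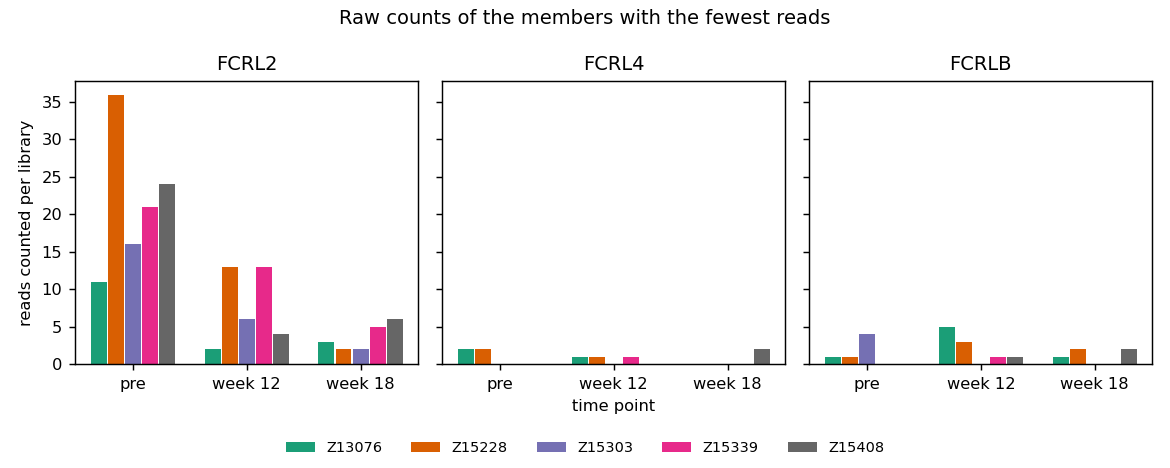
Reads of *FCRL4* and *FCRLB* in each library at the 3 time points, with *FCRL2* drawn beside them on the same axis. No library held more than 5 reads of *FCRL4* or *FCRLB*, and the summed reads were 4, 3 and 2 for *FCRL4* and 6, 10 and 5 for *FCRLB*.

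Read against all 12880 features that passed the filter, 4 of the 5 tested members (*FCRL1*, *FCRL2*, *FCRL5* and *FCRLA*) were lower in 5 of 5 animals at week 12, as were 3.45% of all tested features. At week 18, 4 of the 5 (*FCRL2*, *FCRL3*, *FCRL5* and *FCRLA*) were lower in 5 of 5 animals, against 3.49% of all tested features. *FCRL2* was the member whose week 18 range lay wholly below its pre-treatment range, which was so for 0.202% of tested features. *FCRL5* was the member whose level went up after week 12 in each of the 5 animals, against 2.97% of tested features. These counts used the values that had led to the choice of the family, and both later time points were compared with the same 5 pre-treatment libraries.

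The calls of members that follow rest on the values by which the family was picked, so they are no test of it. By edgeR's quasi-likelihood test none of the 5 members passed an adjusted p of 0.05 in any comparison, and 0% of all tested features did. At an unadjusted p of 0.05, 3 members were lower at week 12 (*FCRL1*, *FCRL2* and *FCRLA*, against 1.09% of tested features) and 4 at week 18 (*FCRL1*, *FCRL2*, *FCRL3* and *FCRLA*, against 1.08%). From week 12 to week 18 no member passed even the unadjusted threshold in that fit, where 0.225% of tested features were lower and 0.280% higher. With the animal as a block, no member passed the adjusted threshold, and 0.00776% of features did in each comparison with pre-treatment. Unadjusted, 4 members were then lower at week 12 (3.25% of features) and 5 at week 18 (3.78%), and *FCRL5* was higher from week 12 to week 18 (1.16%). DESeq2 called no member without the block, where it called 0.00483% of features at week 12 and 0% in the other comparisons. DESeq2 with the animal as a block called *FCRL1*, *FCRL5* and *FCRLA* at week 12 (0.235% of the 11487 features given an adjusted p). At week 18 it called *FCRL1*, *FCRL2* and *FCRLA* (0.241% of 20732). It gave an adjusted p to only 4 of the 5 members at week 12 and to 5 at week 18. It called no member from week 12 to week 18, where it called 0.0386% of features. The study, by its own DESeq2 fit, reports *FCRL1*, *FCRL5* and *FCRLA* as underexpressed during treatment.

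**Figure D3:**
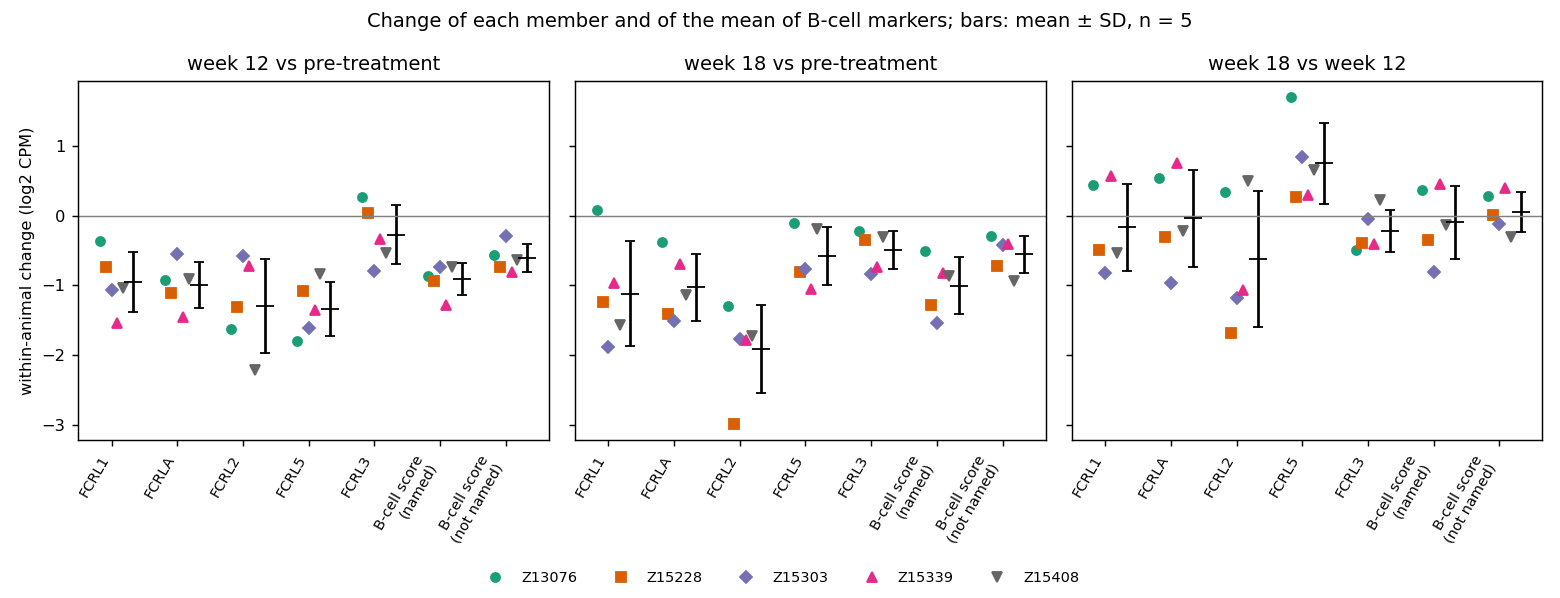
Differences in log2 CPM within each animal for the 5 tested members in the 3 comparisons of time points. The means of 8 named and of 15 other B-cell markers, described below, are drawn beside them. Each point is an animal, and the bar and whiskers are the mean and SD (n = 5). The week 18 vs. week 12 points of *FCRL5* were all above 0 (0.28 to 1.70), while those of *FCRL1*, *FCRL2*, *FCRL3* and *FCRLA* lay on both sides of it.

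The members were set beside B-cell markers, since most of the family is transcribed in B-cells. 8 markers that the study names, among them *MS4A1*, *CD79A*, *CD22* and *BLK*, had a mean log2 change of −0.91 ± 0.23 at week 12 and −1.003 ± 0.41 at week 18, negative in 5 of 5 animals each time. They were chosen by the study on these libraries, so their direction is not independent evidence. 15 other tested B-cell markers, among them *EBF1* and *CD40*, averaged −0.61 ± 0.20 and −0.55 ± 0.26, also negative in 5 of 5 animals. Gene by gene, 8 of the 8 named markers were lower in 5 of 5 animals at both later time points. Of the 15 others 6 were at each, beside 3.45% and 3.49% of all tested features. All 8 named markers had at least some reads at every time point, and their summed level ranged from 243.7 to 1048 CPM at pre-treatment, 137.8 to 531.6 at week 12 and 176.6 to 436.6 at week 18. Neither list had a gene past an adjusted p of 0.05 by edgeR, with or without the block.

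*FCRLA* and *FCRL1* kept close to the named B-cell markers. The change of *FCRLA* differed from that of the marker mean of the same animal by −0.08 ± 0.16 at week 12 and −0.02 ± 0.17 at week 18 (log2, n = 5). The difference for *FCRL1* was −0.04 ± 0.37 and −0.11 ± 0.48. For both genes these differences were smaller than their spread between animals. From week 12 to week 18, *FCRL1*, *FCRLA* and the marker mean were all higher in Z13076 and Z15339 and all lower in the other 3 animals. Against the 15 other markers *FCRLA* was further down in 5 of 5 animals, by −0.38 ± 0.16 and −0.47 ± 0.42, and *FCRL1* was in 4 of 5, by −0.34 ± 0.43 and −0.56 ± 0.65. The closeness of both genes therefore depended on the marker list. What other cells of the mixture add to the level of either list was not tested.

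*FCRL2* was below the named marker mean at week 18 in 5 of 5 animals, by −0.91 ± 0.53, and at week 12 in 3 of 5, by −0.38 ± 0.80. *FCRL5* was below it at week 12 in 5 of 5 animals, by −0.43 ± 0.44, but this rested on Z13076 (−0.93) and Z15303 (−0.88), each with 8 *FCRL5* reads at week 12. In Z15228, Z15339 and Z15408 the difference was −0.15, −0.06 and −0.11. At week 18 *FCRL5* was above the marker mean in 4 of 5 animals, by 0.42 ± 0.39, with Z15339 the exception (−0.22). Against the 15 other markers *FCRL5* differed by −0.73 ± 0.51 at week 12 and by −0.03 ± 0.53 at week 18. *FCRL3* was above the named marker mean in 4 of 5 animals at week 12 (0.64 ± 0.54) and in 5 of 5 at week 18 (0.51 ± 0.34). Against the 15 other markers it differed by 0.34 ± 0.55 at week 12 and by 0.06 ± 0.45 at week 18, when it was above them in 3 animals and below in 2. Since members and named markers were both chosen on these libraries, these differences were not tested.

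**Figure D4:**
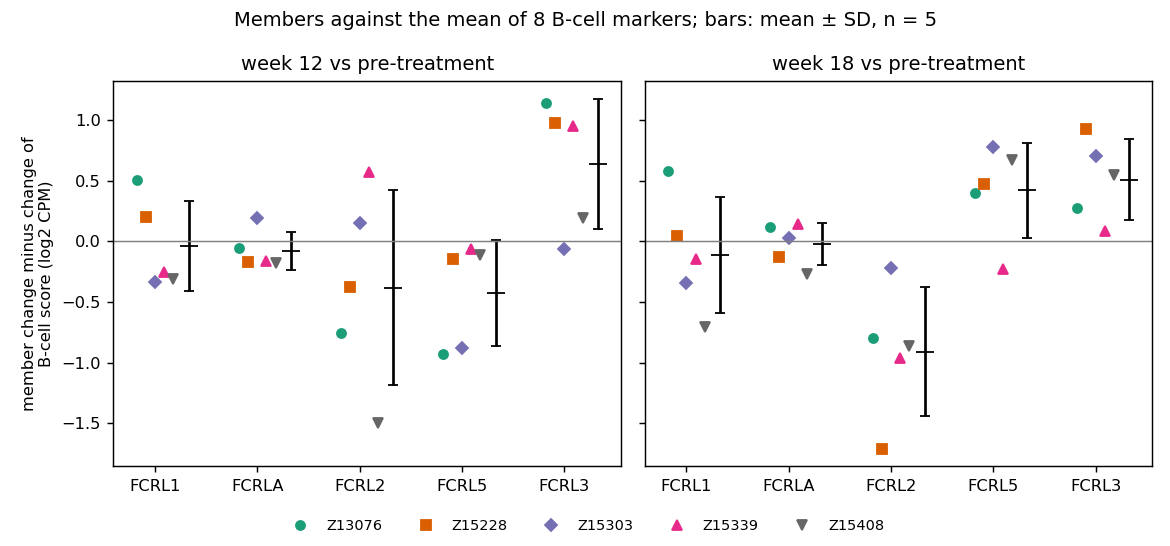
Change of each tested member minus the change of the mean of the 8 named B-cell markers in the same animal (log2), for week 12 and week 18 vs. pre-treatment, with each point an animal. *FCRLA* lay close to the marker mean in every animal (−0.27 to 0.19), *FCRL2* lay below it in all animals at week 18, and *FCRL5* went from below it at week 12 to above it at week 18 in 4 of 5 animals.

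Before dosing, the animals differed by more than the mean fold change of the later time points for each tested member except *FCRL2* at week 18. The highest pre-treatment level was 8.32 times the lowest for *FCRL5*, 4.23 times for *FCRL1*, 3.58 times for *FCRLA*, 2.98 times for *FCRL2* and 1.91 times for *FCRL3*. Z13076 was the lowest animal for all 5 genes. Z15228 was the highest for *FCRL2*, *FCRL3*, *FCRL5* and *FCRLA*, and Z15339 was the highest for *FCRL1*. The animals sampled on shared dates and the others moved the same way for *FCRL1* (−1.21 and −0.55 at week 12, −1.48 and −0.58 at week 18) and for *FCRL5* from week 12 to week 18 (0.60 and 0.99). *FCRL2* at week 18 averaged −1.76 and −2.14 in these sets, and *FCRLA* at week 12 averaged −0.97 and −1.02.

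Over the 15 libraries, with the mean of each animal subtracted, *FCRL1* and *FCRLA* had the most similar log2 CPM of any pair of members (Pearson r = 0.947), and *FCRL3* and *FCRL5* the least similar (r = 0.343). The 15 libraries share animals and time points, so r is given as a description. Outside the family, the genes most like *FCRLA* on that measure included *MS4A1* (r = 0.984), which encodes CD20, and *CD40* (0.963). Those most like *FCRL1* were *BLK* (0.984), a B-cell kinase, *MS4A1* (0.972) and *VAV2* (0.940). *FCRL5* was closest to *GCSAM* (0.916), a germinal centre signalling gene, *MLKL* (0.900) and *SLC22A5* (0.876). *FCRL2* was closest to *SIPA1L3* (0.969), *PIK3R6* (0.925) and *FAS* (0.902), and *FCRL3* to *GGA2* (0.929), *DHX9* (0.911) and *EYA2* (0.904).

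With differences between animals left in, *FCRL1*, *FCRL5* and *FCRLA* each kept 1 of these neighbours among the closest 3 (*VAV2*, *GCSAM* and *CD40*), and *FCRL2* and *FCRL3* kept none. *FCRLA* was then closest to *TCF4* (r = 0.966), *CD40* (0.958) and *CD79A* (0.910), and *FCRL5* to *BHLHE41* (0.919), *GCSAM* (0.896) and *DMD* (0.893). *FCRL1* was closest to *SSPN* (0.850), *VAV2* (0.847) and *MEF2C* (0.843), and *FCRL2* to *BANK1* (0.842), *MEF2C* (0.815) and *SRSF2* (0.814). *FCRL3* was closest to *GALNT12* (0.853), *CRACR2A* (0.847) and *SUPV3L1* (0.819).

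The relatives of the family and the classical Fc receptors that could be tested did not share its direction as a list. Of 15 genes listed, 11 were in the table, and *FCGR1A*, *FCGR2B*, *FCGR3A* and *FCGR3* were not. 9 were tested, and none passed an adjusted p of 0.05 by edgeR in any comparison. Their median log2 fold change was −0.06 at week 12 and 0.06 at week 18, beside 0.00 for all tested features at both. *FCRL6*, the relative found on cytotoxic cells, stood at 7.87 ± 5.17, 6.78 ± 3.33 and 9.51 ± 7.10 CPM at the 3 time points, with changes of −0.03 ± 0.62 at week 12 and 0.27 ± 0.60 at week 18 (n = 5). *FCER2*, the low-affinity IgE receptor (CD23) of naive B-cells, was lower in 5 of 5 animals at both, by −0.44 ± 0.23 and −0.44 ± 0.46. Of the 9 tested, 1 was lower in every animal at each of them, as were 3.45% and 3.49% of all tested features. *FCMR*, the IgM receptor, changed by −0.09 ± 0.23 and −0.07 ± 0.23. *FCGR2A*, an IgG receptor of monocytes, had a higher CPM at the last time point than at week 12 in each animal. Of the 9 tested, 1 was higher in every animal over that interval, as were 2.97% of all tested features. The blocked edgeR log2 fold change of *FCGR2A* was 0.48 (SE 0.15) and did not pass the adjusted threshold. This SE leaves out differences in level between animals, which the SEs of the fit without the block, given below, include.

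The enzymes and adaptors through which the receptors signal were mostly a little lower. Of 16 listed and tested, 14 had a negative log2 fold change at week 12 and 15 at week 18. Their medians were −0.17 and −0.15, beside 0.00 for all tested features at both. None passed an adjusted p of 0.05 by edgeR with or without the block. At an unadjusted p of 0.05, 2 were lower at week 12 and 3 at week 18 without the block, against 1.09% and 1.08% of tested features. With the block 4 and 5 were lower, against 3.25% and 3.78%. In every animal, 3 of the 16 were lower at week 12 and 5 at week 18, as were 3.45% and 3.49% of tested features. *BLNK*, the adaptor of the B-cell receptor, stood below pre-treatment in each animal at week 12 and at week 18, with log2 fold changes of −0.55 (SE 0.24) and −0.69 (SE 0.24). These values and those that follow are from the fit without the animal term, so their SEs include differences in level between animals. *PIK3AP1*, an adaptor for PI3-kinase, gave −0.47 (SE 0.20) and −0.45 (SE 0.20), *PLCG2* gave −0.33 (SE 0.18) and −0.41 (SE 0.18), and *BTK* gave −0.29 (SE 0.27) and −0.53 (SE 0.27). *LYN*, the kinase that phosphorylates inhibitory motifs, gave −0.31 (SE 0.16) and −0.24 (SE 0.16). *PTPN6*, which encodes SHP-1 and is used by many blood cells, gave −0.21 (SE 0.14) and −0.06 (SE 0.14).

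Markers of B-cell stages and of other cells were counted in the same fit, and none of their genes passed an adjusted p of 0.05 by edgeR with or without the block. The SEs given are of the fit without the animal term, so differences in level between animals enter them. The median log2 fold change of 9 naive B-cell markers, several of which T-cells share, was −0.01 at week 12 and 0.08 at week 18. It was −0.16 and −0.12 for 13 memory and atypical B-cell markers, many of them also used by NK cells and monocytes, with 8 and 10 of the 13 negative. Among them *TNFRSF13B*, a receptor for B-cell survival factors, gave −1.07 (SE 0.80) and −1.38 (SE 0.81). *TNFRSF13B* was lower in 5 of 5 animals at both, against 3.45% and 3.49% of tested features. *ITGAX* gave −0.33 (SE 0.25) and −0.48 (SE 0.25), and *COCH* gave 0.17 (SE 0.74) and 0.67 (SE 0.73). The median was −0.29 and −0.38 for 8 plasma cell markers, of which *JCHAIN*, the joining chain of IgA and IgM, gave −0.80 (SE 0.72) and −0.93 (SE 0.72). The medians were 0.14 and 0.08 for 11 T-cell markers and 0.16 and −0.09 for 9 NK-cell markers, in which *FCRL3* is also known to be transcribed. They were −0.16 and 0.22 for 9 monocyte markers, 0.23 and 0.13 for 8 platelet markers, and −0.25 and −0.44 for 3 red blood cell markers. From week 12 to week 18, the interval over which *FCRL5* was higher in 5 of 5 animals, 7 of the 9 monocyte markers had a positive log2 fold change and 2 a negative one (median 0.36), with a summed level of 2296 to 3653 CPM at week 12 and 2603 to 5457 at week 18. Over the same interval 9 of 9 NK-cell markers had a negative log2 fold change (median −0.27, beside −0.003 for all tested features). 2 of them were lower in every animal, as were 2.87% of all tested features. The summed level of the 9 was 4342 to 9932 CPM at week 12 and 4436 to 7555 CPM at week 18. *FCRL3* was lower in 4 of 5 animals over that interval (−0.22 ± 0.30). The part of these shifts in the *FCRL5* and *FCRL3* values was not tested.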

How the data were processed

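Total RNA from PBMCs was amplified with SMART-Seq v4 and sequenced from Nextera XT libraries. Per the labels and the study's methods, the authors aligned reads with STAR 2.7.9a to the *M. nemestrina* genome of Ensembl release 95 and counted reads per gene with its GeneCounts mode, which keeps uniquely mapped reads only. The strand setting is not given in the sources used here. The deposited values are raw counts, 1 column per library, without normalization. The submitters' title for each column gave its library, and the subject and time point labels gave its group. Replicates are separate animals.

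In R 4.3.3, counts were scaled by TMM, filtered with filterByExpr (minimum count 10) and tested with the quasi-likelihood F test of edgeR 4.0.16 over all 15 libraries and 12880 features, with time point alone in the model and Benjamini-Hochberg adjustment at 0.05. SE was obtained as the size of the log2 fold change over √F. Log2 CPM used a prior count of 2. DESeq2 1.42.0 was an alternative, as were the animal as a block, other scalings, filters and prior counts, and leaving out each animal. The subject label pairs the libraries. Deviations of libraries from their time point means correlated at a mean of 0.551 within animals (15 pairs, lowest 0.351) and of −0.137 between animals and time points (60 pairs). Subtracting the time point means makes the second value negative by itself, so it is no evidence of the pairing. The scripts were tested on simulated data.

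The members and the gene lists were chosen with earlier results of these data known. Genes named were all members, the 3 features with a symbol most correlated with each tested member (with and without subtracting animal means), related Fc receptors, 5 reference B-cell genes, and members of each other list with the largest changes. *LYN*, *PTPN6* and the genes that head the B-cell lists were named beyond this rule after their values were seen. None of the 7 members had an entry in the RefSeq table at hand, so no sequences or positions are given. The values of 1 gene that the naming rule selects are withheld and not reported here.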

Additional observations from a re-analysis of the deposited data

Results flagged for a closer look

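Single animals stood apart from the other 4 in 7 of the 30 groups of values examined for the 5 tested members, by a gap test at its 95% critical value of 0.71 (gap to the nearest value over the whole range). For independent, normally distributed values chance gives about 1 in 20 such groups. Levels were examined as CPM without taking logs and the groups share animals, so the 7 cannot be set against that share. *FCRL5* in Z15228 was at 32.9 CPM at pre-treatment, 15.4 at week 12 and 18.6 at week 18, where the nearest other animals were at 9.07, 3.71 and 5.98. The same animal had 49.4 CPM of *FCRL3* at week 12 against 31.4 in the next, and its *FCRL2* log2 change from pre-treatment to week 18 was −2.99 against −1.78 in the next. *FCRL1* was at 3.97 CPM in Z13076 at week 12, below the next value of 6.46, and at 11.1 CPM in Z15339 at week 18, above the next value of 5.49. The 3 *FCRL5* values come from 1 animal and are not independent of each other. No cause was tested.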

How the results depend on the processing

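Without the animal as a block, edgeR called 0 features in each comparison (207, 218 and 65 at an unadjusted p of 0.05 for week 12, week 18 and week 18 vs. week 12), also on total library size, with a minimum count of 5, with no filter and without each animal in turn. With the animal as a replicate block it called 1 feature at week 12, 1 at week 18 and 0 from week 12 to week 18, none of them a member. At an unadjusted p, and in DESeq2, the block added members to the calls, as given in the report. DESeq2 called 1 feature at week 12 without the block and 27, 50 and 8 with it. With the block and an animal left out, edgeR called 0 to 6 features at week 12 and 0 to 17 at week 18. The highest counts were without Z13076, with *FCRL5* among the 6 and *FCRL1* and *FCRLA* among the 17. Without Z15408 it called 3 at week 18. The causes were not tested.

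The mean changes of the 5 tested members moved by less than 1 SD between animals under every scaling, prior count, model and animal left out. *FCRL2* at week 18 ranged from −2.38 to −1.64, and *FCRL5* from week 12 to week 18 from 0.48 to 0.87. *FCRLA* from week 12 to week 18 changed sign, from −0.24 without Z15339 to 0.19 without Z15303. *FCRL2* from week 12 to week 18 was −0.35 without Z15228. Depth limited *FCRL2*, *FCRL4* and *FCRLB* most.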
